A study of Homo sapiens with 2 samples.

Results

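PAQR3 and BMP2K are protein-coding genes that run towards each other on chromosome 4, and in RNA of extracellular vesicles from a human mast cell line their values lay near opposite ends of the range. The pair was taken as the rows of both deposited tables whose Ensembl identifiers belong to PAQR3 (ENSG00000163291) or BMP2K (ENSG00000138756), which gave 2 of 14467 genes. The vesicles, small membrane particles shed by cells, came from LAD2, an established human mast cell line kept in SP34 medium with its nutrient supplement and stem cell factor at 37 °C and 5% CO2, and were collected after 4 days of culture. The 2 libraries, replicates 1 and 2, formed 1 group with no untreated or comparison arm. Nothing in the labels gives them separate cultures of origin, and their SD may reflect technical error alone. PAQR3 was picked for its high value and the pair for its gap, so levels, ranks and replicate differences are given as a description with no test.

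PAQR3 encodes a multi-pass membrane protein of the Golgi from the progestin and adipoQ receptor family, also named RKTG for trapping RAF kinases at the Golgi, away from the ERK pathway. It has also been described as a scaffold in autophagy initiation and as an anchor of the SCAP and SREBP complex at the Golgi. BMP2K, also named BIKE, encodes a serine/threonine kinase of the Numb-associated family, which phosphorylates the medium subunit of the clathrin adaptor AP2. It was named for its induction by BMP2 in mouse cells, and its long and short splice forms have been described with opposing roles in autophagy of human erythroid-like cells.

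On GRCh38, the build hg38 named in the submitters' processing notes, GENCODE 29 places PAQR3 on the minus strand of chromosome 4 from 78887127 to 78939438 and BMP2K on the plus strand from 78776342 to 78916372. The gene spans overlap by 29246 bases at their 3′ ends. Exonic bases shared on opposite strands number 5646, which is 45.5% of the 12403 exonic bases of PAQR3 and 56.8% of the 9938 of BMP2K. In GENCODE 29 each gene was the other's one opposite-strand partner with shared exonic bases. The shared bases lie in 2 stretches, one of 111 bases from 78887174 to 78887284 and one of 5535 bases from 78910838 to 78916372. None of them is coding in the protein-coding PAQR3 transcript, while 1304 are coding in BMP2K, 36.6% of its 3562 coding bases.

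The sequences that follow show where one stretch of DNA is exonic in both genes, written 5′ to 3′ on the strand of the transcript named, from the GENCODE 29 transcripts. The first spans exon 15 of the long BMP2K transcript, BMP2K-201 (chr4:78887174-78887284, plus strand), with 30 coding bases of the exon on each side. Capitals mark the 111 bases that are also exonic, as the reverse complement, in the PAQR3 transcript PAQR3-210.
BMP2K-201 exon 15 with flanks: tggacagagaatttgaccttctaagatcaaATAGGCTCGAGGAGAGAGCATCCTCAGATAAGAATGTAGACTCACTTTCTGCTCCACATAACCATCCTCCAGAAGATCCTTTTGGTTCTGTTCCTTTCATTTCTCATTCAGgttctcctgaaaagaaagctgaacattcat
The next pair gives the same 30 positions, chr4:78912004-78912033, on each strand. Capitals mark the stop codon in BMP2K-201 and its reverse complement in PAQR3-209, the protein-coding PAQR3 transcript, where it falls in the long last exon.
PAQR3-209 over the BMP2K stop: CTActgtttagaaggaaatggagcagcacc
BMP2K-201 stop codon: ggtgctgctccatttccttctaaacagTAG
The coding ends of PAQR3 lie outside the shared bases, and capitals mark its start codon at chr4:78939195-78939224 and its stop codon at chr4:78920539-78920568, both on the minus strand.
PAQR3-209 start codon: ATGcatcagaagctgctgaagagcgcgcat
PAQR3-209 stop codon: ccttgtcctgactatgtttcacatttgTGA

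The stop codons of PAQR3-209 and BMP2K-201 are 8505 bases apart, and the last PAQR3-209 exon of 8804 bases takes in the BMP2K stop codon and ends inside BMP2K coding sequence, 156 bases along from the far edge of that codon. PAQR3 has 12 annotated transcripts, of which 1 is protein-coding and 6 are of the nonsense-mediated decay type, and 6 of the 12 share bases with BMP2K exons. PAQR3-209 shares 4495 of its 9811 bases (45.8%), and PAQR3-207, of the decay type, shares 1226 of 2288 (53.6%). BMP2K has 8 transcripts, 4 of them protein-coding, and 3 of the 8 share bases with PAQR3. The long form BMP2K-201 shares 1459 of 3804 bases (38.4%) and BMP2K-203, whose last exon extends furthest, 5646 of 6902 (81.8%). The short form BMP2K-204 ends before the PAQR3 gene and shares 0 of 3195 bases. The deposited tables hold 1 value per gene, so they do not divide either gene's value between transcripts. The letters AATAAA, a poly(A) signal, searched on the transcript strand alone, occur in the last 40 bases of BMP2K-201 and BMP2K-204 and not of PAQR3-209 or BMP2K-203, and 34.4% of 83129 protein-coding GENCODE 29 transcripts hold them there.

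**Figure D1:**
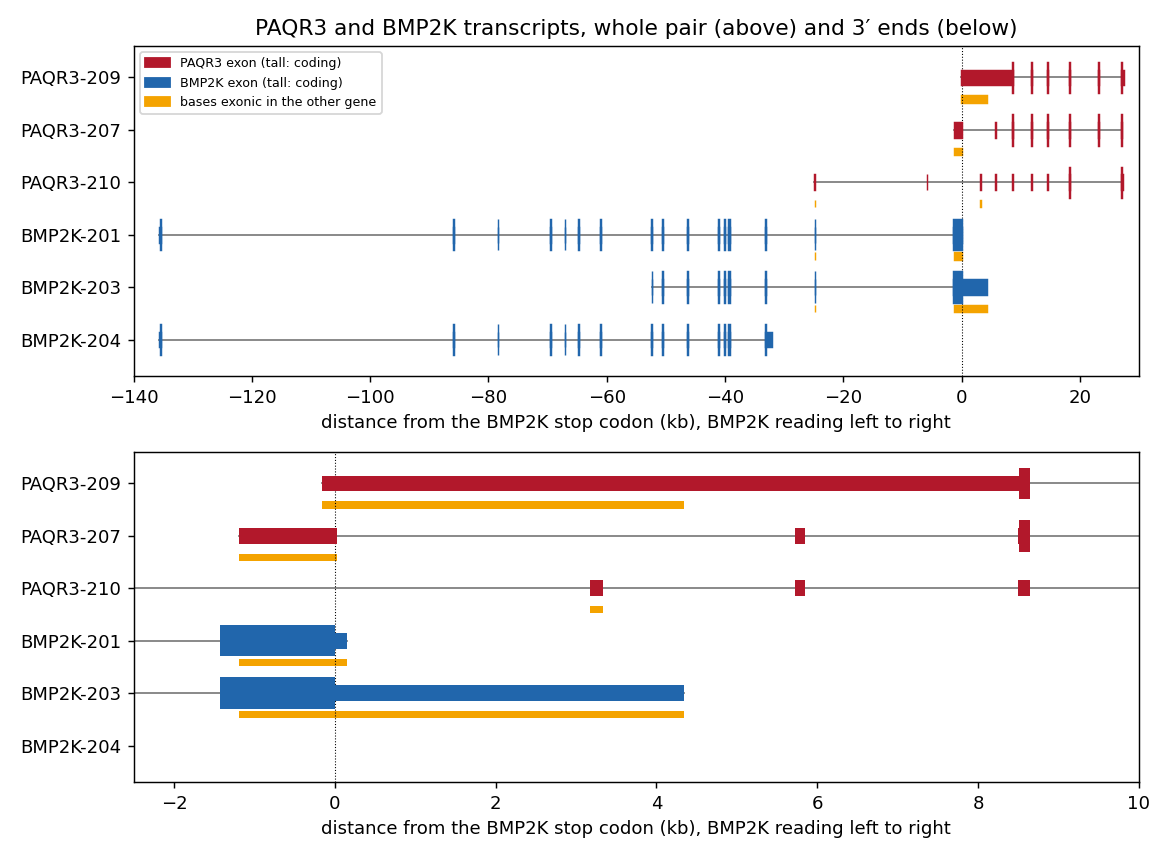
Exons of 3 PAQR3 and 3 BMP2K transcripts along the distance in kilobases from the BMP2K stop codon, for the whole pair and for the 3′ ends, with tall boxes coding, low boxes non-coding and orange bars marking bases that are exonic in the other gene. The last exon of PAQR3-209 reaches across the BMP2K stop codon, and BMP2K-204 has no orange bar.

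The deposited log2 value of PAQR3 was 14.01 (replicate 1) and 13.55 (replicate 2), a mean of 13.78 ± 0.32 (SD, n = 2). BMP2K had 0.23 in both libraries, 0.23 ± 0.01 (SD, n = 2). PAQR3 was thus far above BMP2K in both libraries, with no overlap. The values are the authors' log2 values, and the sources used here do not give how they were normalized and transformed. Many low genes share 1 exact pair of values, so the SD between libraries of a gene such as BMP2K is not an error of its own. The median over all 14467 genes was 3.09 in replicate 1 and 3.04 in replicate 2. Read depth is not given in the files, so no counting interval can be put on either gene. Whether counting used strand is not given either. It is thus not known whether reads from PAQR3 and BMP2K over the shared bases were kept apart, and either value may measure RNA of the opposite strand.

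Divided by exonic length, PAQR3 had 10.37 (replicate 1) and 9.92 (replicate 2) on the scale of log2 linear value per kilobase, and BMP2K -3.09 and -3.08. The linear value is 2 to the power of the deposited value. The gap on this scale, PAQR3 minus BMP2K, was 13.46 log2 units in replicate 1 and 12.99 in replicate 2, a mean of 13.23 ± 0.33 (SD, n = 2). On the deposited scale, which is not divided by length, the gap was 13.78 and 13.31, a mean of 13.55 ± 0.33. The pair was chosen for this gap, so its size beside the SD between libraries is a description on both scales. The SD of BMP2K is also one that many genes share.

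By deposited value PAQR3 ranked 11th of all genes in replicate 1 and 17th in replicate 2, and 13th by mean, with 99.9% of genes below it. Among the 8431 protein-coding genes with a value it ranked 4th by mean, after BEST1, MRNIP and ENO3. Per kilobase its rank was 147 of the 13733 genes with a length, and 9 among protein-coding genes, since its exons are long. It held 0.939% of the summed linear value in replicate 1 and 0.647% in replicate 2. By mean its neighbours in the order were ENO3, a muscle enolase, at 13.87 ± 0.25 above it and ATG10, an enzyme of autophagy, at 13.64 ± 0.27 below it (SD, n = 2). These 3 means lie within 1 SD of each other, so their order is not resolved, and PAQR3 was above ENO3 in replicate 1 and below ATG10 in replicate 2. By both values together the gene nearest to PAQR3 was ENSG00000287510, at 13.81 and 13.11, followed by ENO3 and ATG10 (Euclidean distances over 2 libraries of 0.48, 0.59 and 0.63 log2 units).

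BMP2K stood near the floor of the tables. Its mean of 0.23 lay above 1034 genes, 7.15% of all, where the lowest mean was -1.06. Exactly the same pair of values was shared by 464 other genes, so that 3.21% of all genes stood at this one level and the genes nearest to BMP2K cannot be ranked. Of these 465 genes, 370 were protein-coding. The mean linear value of BMP2K was 1.17. BMP2K did not reach a linear value of 10 in both libraries, called detected from here on, which PAQR3 and 6576 genes in all did (45.5%).

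Of the 465 genes at the BMP2K level, 91 had an opposite-strand partner with shared exonic bases and a value, in 103 pairs. The partners, PAQR3 among them, had a median log2 value of 6.41, and 33 of the 103 stood above 8. Neither figure was computed over all opposite-strand partners, so neither is shown to be particular to genes at this level. PAQR3 was the highest of the 103 partners, and the next was RUSC1-AS1, opposite FDPS, an enzyme of isoprenoid synthesis, at 12.35. These partners are a description of genes chosen by the value of BMP2K.

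PAQR3 was higher in replicate 1 than in replicate 2, with a log2 difference, replicate 2 minus replicate 1, of -0.46. BMP2K differed by 0.01. Neither gene, 0 of 2, reached a 2-fold difference, which 13 of 6576 detected genes (0.198%) reached with no test behind the count. Over the 15 other genes within 1 log2 unit of the PAQR3 mean, these differences ran from -0.69 to 1.22, with a median of 0.34 and an SD of 0.475. The difference of PAQR3 lay within that range. Among the 15, 4 were higher in replicate 1, and 1, ENSG00000287510, had a lower difference than PAQR3. Over the 2543 other genes within 1 unit of BMP2K the differences ran from -0.02 to 0.02. Of the 19 genes with a mean above 13, the ones higher in replicate 1 were TALAM1, PAQR3 and ENSG00000287510, while 16 were higher in replicate 2. Over the 6576 detected genes the median difference was -0.02, on the side of replicate 1 as for PAQR3.

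**Figure D2:**
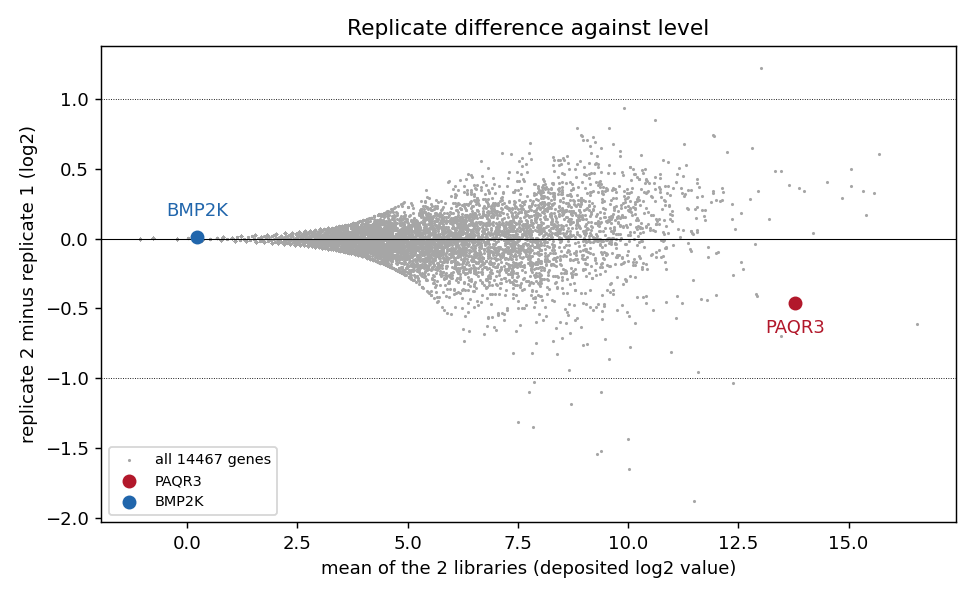
Each point is 1 of 14467 genes, with the mean deposited log2 value of the 2 libraries on the x axis and the log2 difference, replicate 2 minus replicate 1, on the y axis; dotted lines mark a 2-fold difference. PAQR3 lies at 13.78 and -0.46 and BMP2K at 0.23 and 0.01, where the differences of the genes at similar levels lie close to 0.

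The pair was set beside the other protein-coding genes that share exonic bases on opposite strands. GENCODE 29 holds 1992 such pairs, and both genes had a value in 1091. In each pair the gap is the higher gene minus the lower. The gap of PAQR3 over BMP2K, 13.23 log2 units per kilobase, was the widest of the 1091, against a median of 2.84. On the deposited scale the 13.55 of PAQR3 over BMP2K was again the widest, against a median of 2.72 with quartiles at 1.26 and 4.75. A gap of 8 or more on that scale occurred in 35 pairs. Because the pair was chosen with its gap known, its place is a description. In 710 further pairs 1 gene alone had a value, and these have no gap; the highest of those genes on the deposited scale was MMACHC, a vitamin B12 processing gene, at 12.82, below PAQR3. Per kilobase 3 of those genes stood at or above PAQR3, the highest at 11.28.

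After PAQR3 and BMP2K, the widest gaps on the deposited scale were MXD3, a MYC network repressor, over PRELID1, a mitochondrial lipid carrier (11.81), CACNA1H, a calcium channel, over the tryptase gene TPSG1 (11.34), ZACN, a zinc-activated channel, over EXOC7, an exocyst subunit (11.04), and SH3D19, an adaptor protein gene, over RPS3A, a ribosomal protein gene (10.94). Per kilobase the gap of ZACN over EXOC7 was 12.26, the next after that of PAQR3. EXOC7 shares the exact values of BMP2K. The deposited level of PAQR3 was matched or passed in 3 other pairs, those of BEST1, MRNIP and ENO3, and per kilobase 6 pairs, its own among them, reached its level. BMP2K, with a per-kilobase log2 value of -3.08, stood well below their lower partners, which had 5.01 for FTH1, the ferritin heavy chain, 5.74 for SQSTM1, an autophagy receptor, and 5.80 for PFN1, an actin-binding protein gene. For RPS23, the ribosomal protein gene opposite ATG10, this value was 2.76.

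**Figure D3:**
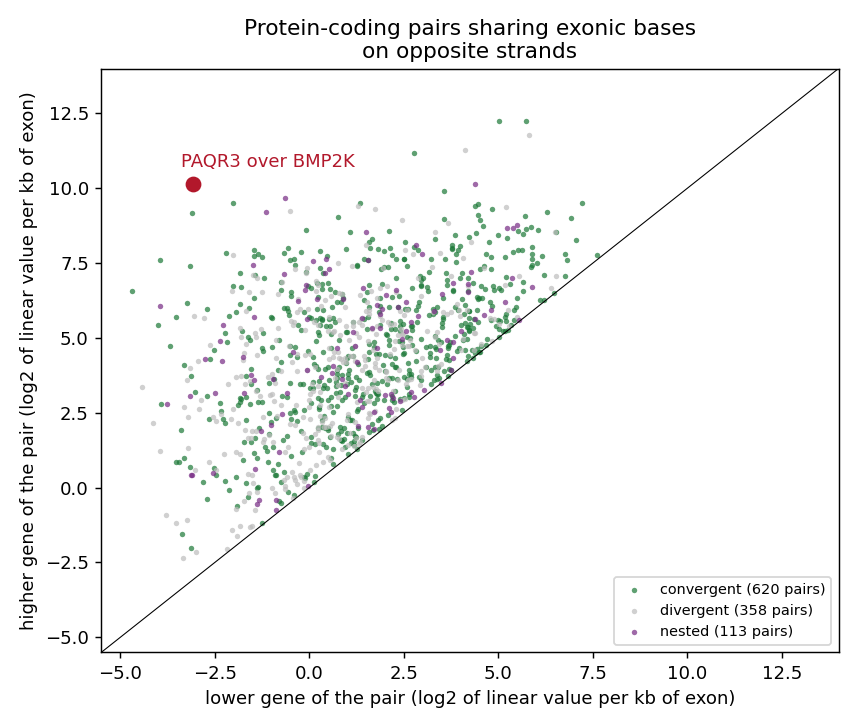
Each point is 1 of 1091 protein-coding pairs that share exonic bases on opposite strands, with the log2 linear value per kilobase of exon of the higher gene on the y axis and of the lower gene on the x axis, both as the mean of 2 libraries. PAQR3 over BMP2K, at 10.15 and -3.08, lies farthest from the diagonal of equal values.

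Pairs whose genes converge, as PAQR3 and BMP2K do, numbered 620 with both values, and had a median gap of 2.70 log2 units per kilobase, against 2.95 for 358 divergent and 3.27 for 113 nested pairs. In shared exonic bases the pair stood 4th of the 1091, with 5646 against a median of 301. Over the 620 convergent pairs the gap per kilobase and the number of shared bases had a Spearman rho of 0.05. All these pairs come from the same 2 libraries, and any relation of shared bases to gene length was not tested. Convergent pairs with at least 1000 shared bases, 157 in number, had a median gap of 2.83 per kilobase, and the 115 with fewer than 100 had 2.31.

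Within 1 Mb of its span GENCODE 29 has 29 other genes, of which 6 had a value, and 7 other protein-coding genes, of which 3 had one. All 6 were far below PAQR3 and above BMP2K, and 4 of them were above the median of 3.06 over all genes on the deposited scale. FRAS1, an extracellular matrix protein gene, had 3.35 and 3.27 in replicates 1 and 2, NAA11, an N-terminal acetyltransferase gene, 2.77 and 2.71, and ANTXR2, an anthrax toxin receptor gene, 2.11 and 2.14. The long non-coding RNA gene LINC00989 was highest of the 6, at 7.20 and 7.11, LINC01094 had 4.98 and 4.78, and LINC02469 4.38 and 4.32. Per kilobase PAQR3 stood at 10.15 and BMP2K at -3.08, and all 6 neighbours lay between them, from -1.18 for ANTXR2 to 5.998 for LINC00989. No value was present for CNOT6L, MRPL1, ANXA3 or GK2. Over all of GENCODE 29, 8431 of 19951 protein-coding genes had a value, and the neighbours were not tested against this.

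PAQR3, picked for its high value, was the highest of its family and BMP2K the lowest of its own. Of the 11 genes of the PAQR family, 7 had a value and 3 were detected, PAQR3 among them. Over all protein-coding genes 8431 of 19951 had a value, and 3675 of the 8431 were detected. PAQR4 had deposited values of 7.46 in replicate 1 and 7.48 in replicate 2 and PAQR7, a progestin receptor, 4.42 and 4.49. The other progestin receptors PAQR5 and PAQR6 had 3.12 and 3.17, and 2.47 and 2.42. PAQR9, of the same receptor class, had 3.09 and 3.02, and the adiponectin receptor ADIPOR1 1.53 and 1.52. Per kilobase, PAQR3 stood at 10.15 ± 0.32, PAQR4 at 5.90 ± 0.01, PAQR7 at 2.73 ± 0.05 and the other 4 between -0.15 and 1.16 (n = 2). ADIPOR2, PAQR8, MMD and MMD2 had no value. Of the members with an opposite-strand partner that had a value, PAQR4 lay opposite PKMYT1, a cell cycle kinase gene, at 6.70 per kilobase, PAQR5 at 0.50 opposite KIF23-AS1 at 9.31 and PAQR6 at 1.16 opposite BGLAP, the osteocalcin gene, at 1.82. PAQR6 and BGLAP share 1 exonic base and neither was detected. On the deposited scale PAQR6 was the higher, at a mean of 2.44 against 2.07. PAQR7 at 2.73 was higher than its partner ENSG00000236528 at 2.57, as PAQR3 was higher than BMP2K.

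All 4 Numb-associated kinases had a value and none was detected, where 3675 of the 8431 protein-coding genes with a value were. AAK1, the closest relative of BMP2K and also a kinase of AP2, had deposited values of 3.30 and 3.34, STK16, a membrane-trafficking kinase, 3.33 and 3.29, and GAK, which acts in clathrin uncoating, 1.35 and 1.33. Per kilobase, BMP2K at -3.08 was below GAK at -2.58, AAK1 at -1.24 and STK16 at 1.18. The median of protein-coding genes was 0.68 on this scale. Per kilobase the differences among these kinases exceed their SDs between libraries. On the deposited scale AAK1 and STK16 differed by less than their SDs, so the order of these 2 is not resolved there.

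The measured genes of the 4 pathway lists tied to PAQR3 were all lower per kilobase than PAQR3 itself. PAQR3 was picked for its high value and ranked 9 of 8431 protein-coding genes on this scale. That outcome was thus largely set by the choice. Of 25 genes of the RAS, RAF and ERK pathway, 18 had a value and 11 were detected, with a median log2 value per kilobase of 0.32. The RAF kinase gene BRAF had deposited values of 4.89 and 4.87 (0.33 per kilobase) and ARAF 2.02 in both (0.20). The RAS inhibitors NF1 and RASA1 had 9.68 and 9.49, and 6.59 and 6.61. Of 9 SREBP genes 8 had a value and 4 were detected, with a median per kilobase of 1.27. They included the transcription factor gene SREBF1 at 6.45 and 6.63, its escort SCAP at 5.89 and 5.56 and the retention factor INSIG1 at 4.79 and 4.76. Of 11 PI3K and AKT genes 9 had a value and 6 were detected (median 0.55 per kilobase), among them the kinase PDPK1 at 6.20 and 6.07. Of 12 autophagy initiation genes 5 had a value and 1 was detected, ATG14, the lipid kinase subunit for which PAQR3 is a described scaffold, at 6.21 and 6.11. Over all protein-coding genes 8431 of 19951 had a value, and 3675 of the 8431 were detected. The lists were not tested against these shares.

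The measured genes of the 3 lists tied to BMP2K were also all lower per kilobase than PAQR3, again largely set by the choice of PAQR3. Set against BMP2K at -3.08, SMAD4 was lower at -3.37 and the other measured genes of these lists were higher. Of 22 AP2 and clathrin genes 13 had a value and 5 were detected, with a median log2 value per kilobase of -0.16. AP2M1, the AP2 subunit that BMP2K phosphorylates, had deposited values of 2.45 and 2.48, and the large subunits AP2A1 and AP2B1 2.38 and 2.39, and 2.02 in both. The list was led by the dynamin gene DNM2 at 7.57 and 7.77 and the clathrin heavy chain gene CLTC at 5.89 and 5.62, with the scaffold genes ITSN1 and HIP1R next. Of 15 COPII coat genes 8 had a value and 5 were detected (median 0.68 per kilobase), with the GTPase SAR1B at 8.23 and 8.25, SEC13 at 5.75 and 5.80 and SEC16A, described with the BMP2K splice forms, at 3.91 and 3.87. Of 14 BMP signalling genes 4 had a value and 1 was detected, the receptor BMPR2 at 4.38 and 4.54, while BMP2 had none. These counts too stand beside 8431 of 19951 protein-coding genes with a value and 3675 of the 8431 detected, with no test. No gene of any list reached a 2-fold difference between the libraries, where 0.198% of detected genes did.

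**Figure D4:**
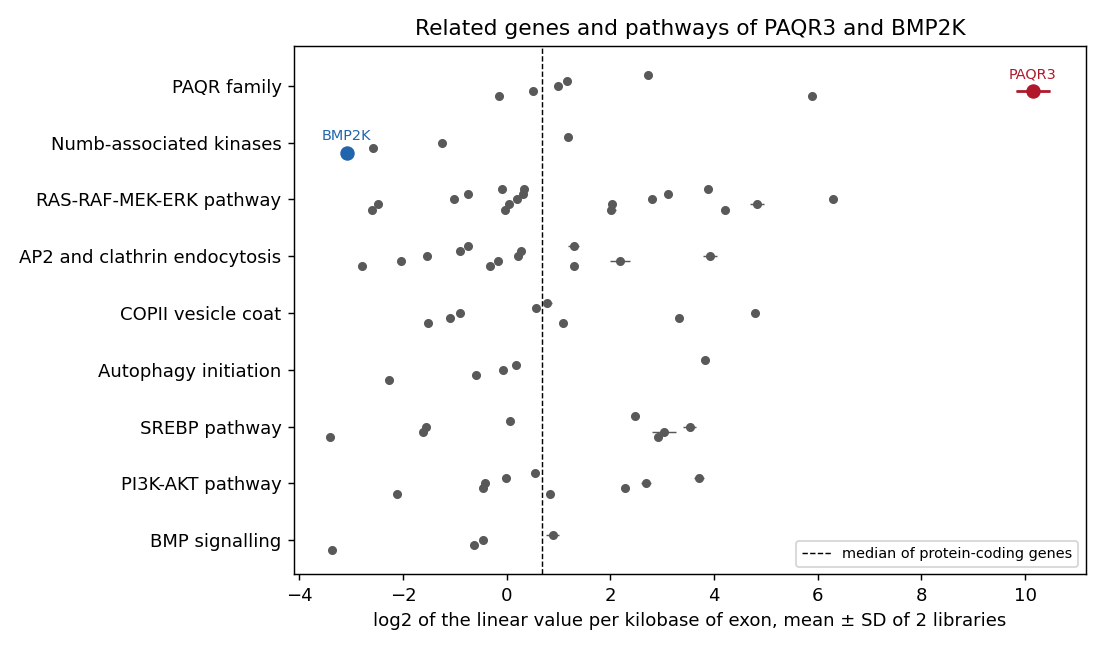
Genes of the 2 families and 7 pathways, each point 1 gene with a value, at its log2 linear value per kilobase of exon with the mean and SD of 2 libraries; the dashed line is the median of protein-coding genes at 0.68. PAQR3 stands at 10.15, above every other gene drawn, and BMP2K at -3.08, among the lowest.

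Over these 9 lists, 121 genes other than PAQR3 and BMP2K were named and 74 had a value. A partner with shared exonic bases on the opposite strand and a value of its own was present for 35 of them. Where a gene had several such partners, the one sharing the most bases was taken. Overlaps went down to 1 base, as for PAQR6 and BGLAP. The partner was higher per kilobase in 29 of 35 (82.9%), and the median of partner minus member over the 35 was 2.95 log2 units. The same share was not computed over all genes with a partner, so it is not shown to be particular to these lists. Partner minus member ranged over the 35 from 11.57 for ENSG00000258430 over the kinase gene AKT1 to -4.56 for CLSTN1, a calsyntenin gene, under PIK3CD. Seen from BMP2K, PAQR3 as the partner was higher by 13.23, outside that range. Seen from PAQR3, BMP2K as the partner was lower by 13.23, which is outside it at the other end. Both are the same gap, for which the pair was chosen, so its place outside the range is a description.

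Of 10 mast cell markers 9 had a value and 1, the transcription factor gene GATA2, was detected, with a median log2 value of 2.29. The granule genes TPSAB1, TPSB2, CPA3, CMA1 and HDC and the receptors KIT and MS4A2 were below the detection threshold, and FCER1A had no value. Of 10 markers of other cell types 4 had a value and 2 were detected, among them VIL1. Their part in the values of PAQR3 and BMP2K was not tested. Of all 19951 protein-coding genes 8431 had a value, and 3675 of the 8431 were detected.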

How the data were processed

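RNA of LAD2 extracellular vesicles was sequenced in 2 libraries. Per the labels' protocols, a Qiagen kit for small amounts was used for extraction and an NEB NextUltra kit, listed as one for DNA libraries, for library preparation. The submitters' processing notes list FastQC 0.11.5, STAR 2.6.1a and hg38. The sources used here do not give how reads were counted, by strand or not, on which annotation, or how values were transformed. Each deposited table holds 1 log2 value per gene, although it is named as counts. The values hold fractions, and 1029 genes lie below 0 in each library.

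From these values the mean, the SD, ranks, linear values (2 to the power of the log2 value) and linear values per kilobase of exon were computed. A gene was called detected at a linear value of at least 10 in both libraries. Symbols were available for 11066 identifiers and GENCODE 29 models, which gave lengths and overlaps, for 13733 of 14467. Identifiers with a value but no such model include TALAM1 and ENSG00000287510. The annotation used in counting thus held genes that GENCODE 29 lacks, and its exon lengths and overlaps may differ from those used here. A pair shares at least 1 exonic base on opposite strands. It is convergent where the spans overlap at both 3′ ends alone, divergent at both 5′ ends, and otherwise nested. With 1 group no test of a condition was possible, and depth is unknown. The members and lists were chosen with earlier results of these data known.

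Named by rule were PAQR3 and BMP2K, genes with a value within 1 Mb, both families, up to 4 highest members per other list, the 3 genes nearest to each by value and the 5 widest coding pairs. The 3 nearest to BMP2K are not listed because 464 are identical. A few genes named by the rule are not reported here. Other names (ARAF, AP2M1, its large subunits, partners, genes with no value) were chosen after their values were seen. Overlap and counting code was tested on simulated data. Python 3.11.15 was used, with the packages matplotlib 3.10.9, numpy 2.4.6 and pandas 2.3.3.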

Additional observations from a re-analysis of the deposited data

How the results depend on the processing

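The gap of PAQR3 over BMP2K kept its direction under every alternative run. That outcome was largely set by the choice of the pair for its wide gap. On the deposited scale the gap was 13.55. It became 12.66 as log2 of (linear value + 1) and 10.30 as log2 of (linear value + 10), both of which raise BMP2K by construction. It was 13.04 per length of the longest transcript, an alternative chosen after seeing the data, and 13.31 to 13.78 with 1 library left out. The share of genes below PAQR3, 99.91% as reported, was 98.93% per exonic length, 99.08% per longest transcript, 99.95% among protein-coding genes, 99.80% among detected genes and 99.88% to 99.92% with 1 library left out. The share below BMP2K, 7.15%, was 2.39% per exonic length, 2.70% per longest transcript and 7.67% among protein-coding genes, and 7.15% with either library left out. A rank of BMP2K among detected genes could not be had, as it is not one. The replicate difference of PAQR3 stayed negative under the 3 scalings, from -0.75 after quantile normalisation to -0.44 centred on the median of detected genes, against -0.46. That of BMP2K, 0.01, was 0.0292 centred on the median of detected genes and -0.0699 scaled to equal summed value, and 0 after quantile normalisation, so it has no settled direction; the cause was not tested. The 2-fold count was 13 to 15 under all 4 alternatives. The pair kept the widest gap of coding pairs under the alternatives that include it. The median gap of all pairs, 2.72, was 2.75 with at least 100 shared bases, 2.84 per exonic length, 2.67 to 2.70 with 1 library left out and 2.05 over the 574 pairs with both genes detected, which leave out PAQR3 and BMP2K. Detected list members numbered 39, with 58 at a linear value of 5 and 24 at 20. No paired analysis was possible because both libraries belong to 1 group.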

Other observations

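Among convergent coding pairs, 3 share more exonic bases than PAQR3 and BMP2K, and they were chosen here after their values were seen. RAPH1, an actin regulator gene, and ABI2, a subunit gene of the WAVE complex, share 8870 bases, with mean log2 values of 7.64 ± 0.04 and 6.49 ± 0.15 (SD, n = 2) and a gap of 2.14 per kilobase. EML5, a microtubule-associated protein gene, and ZC3H14, a poly(A)-binding protein gene, share 5840 bases, with 8.20 ± 0.25 and 3.88 ± 0.09 and a gap of 5.26. XRCC3, a DNA repair gene, and KLC1, a kinesin light chain gene, share 5756 bases, with 8.41 ± 0.19 and 8.38 ± 0.19 and a gap of 1.38. The gap per kilobase of PAQR3 over BMP2K, 13.23, was wider than these 3.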
